A study of Mus musculus with 11 samples.

Results

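The Notch receptors, the genes they switch on and the genes of early double-negative thymocytes were followed in thymus cells of 11 mice. The 10 genes were Notch1, Notch2, Notch3, Rbpj, Hes1, Dtx1, Nrarp, Ptcra, Kit and Myb, chosen by name out of 54418 genes in the count table and each matched to 1 gene of GRCm38. Gene positions are those of GENCODE M21 on that build. The mice were 4 wt, 4 Zmat3-/- and 3 Puma-/-p21-/-Zmat3-/- (TKO) animals of 8 to 12 weeks, on a C57BL/6-WEHI background. Zmat3-/- mice lack Zmat3, an RNA-binding zinc-finger protein gene induced by TRP53. TKO mice lack Zmat3 together with Puma (Bbc3), a cell death gene, and p21 (Cdkn1a), a cell cycle inhibitor gene, and came from crosses of Zmat3-/- with Puma-/-p21-/- mice. All deletions were present in every cell of the body, and neither Puma-/-p21-/- nor single Puma-/- or p21-/- mice were analysed here. RNA came from a cell suspension of the whole thymus, without sorting, so fewer cells of a type and less RNA per cell cannot be told apart.

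Notch receptors sit on the surface of thymus-seeding progenitors and are cut when they meet a ligand on thymic epithelium. The freed inner part enters the nucleus, joins the DNA-binding protein RBPJ and switches on target genes, which commits the progenitor to the T cell lineage. This signal is strongest in thymocytes that carry neither CD4 nor CD8, the double-negative stages, and falls after the pre-T cell receptor (pre-TCR) signal at beta-selection. Double-negative cells are a small part of the thymus, which consists mostly of double-positive cells.

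The core sequence bound by RBPJ is TGGGAA. It was searched on both strands in windows of 300 bases (250 before to 50 after the transcript start, RefSeq on GRCm38.p6), which were given for 9 of the 10 genes. It was found in the windows of 2 genes, Rbpj and Ptcra, with 2 copies each, and in 25.6% of all 32851 windows. The sequence before the start is shown for the 3 receptors, whose levels moved together from mouse to mouse, and for Ptcra, with TGGGAA in capitals. They are Notch1 at chr2:26503823-26504072 (minus strand), Notch2 at chr3:98013288-98013537 (plus strand), Notch3 at chr17:32166891-32167140 (minus strand), Ptcra at chr17:46763713-46763962 (minus strand), written 5′ to 3′ along each gene's own strand.
Notch1: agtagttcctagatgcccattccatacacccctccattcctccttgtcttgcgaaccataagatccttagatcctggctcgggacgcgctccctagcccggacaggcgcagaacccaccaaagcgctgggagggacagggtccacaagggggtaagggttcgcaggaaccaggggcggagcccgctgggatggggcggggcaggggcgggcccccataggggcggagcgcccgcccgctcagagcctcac
Notch2: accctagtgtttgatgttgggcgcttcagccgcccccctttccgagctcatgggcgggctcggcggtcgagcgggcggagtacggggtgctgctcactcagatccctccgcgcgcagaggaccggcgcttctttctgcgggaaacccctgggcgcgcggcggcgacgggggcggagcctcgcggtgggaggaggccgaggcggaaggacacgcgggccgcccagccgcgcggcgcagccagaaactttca
Notch3: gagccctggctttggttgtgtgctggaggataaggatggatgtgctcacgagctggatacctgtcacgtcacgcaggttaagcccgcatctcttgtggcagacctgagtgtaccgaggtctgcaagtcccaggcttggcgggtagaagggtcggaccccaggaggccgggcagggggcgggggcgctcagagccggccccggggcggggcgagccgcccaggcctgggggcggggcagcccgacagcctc
Ptcra: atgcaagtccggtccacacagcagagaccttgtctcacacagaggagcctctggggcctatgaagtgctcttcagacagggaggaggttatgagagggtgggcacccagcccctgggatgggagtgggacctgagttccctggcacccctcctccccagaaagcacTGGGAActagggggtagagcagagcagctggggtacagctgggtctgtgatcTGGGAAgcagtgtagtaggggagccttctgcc
The copies in Ptcra begin 84 and 32 bases before the start, and neither the core nor its reverse complement is spelled out in the 3 receptor windows. CANNTG, the E-box bound by E proteins of developing T cells, reads the same on both strands up to its 2 free bases and was found in 5 of the 9 genes (Rbpj, Nrarp, Ptcra, Kit and Myb) and in 72.3% of all windows. A match describes the letters and is not evidence of binding.

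None of the 10 genes passed the test between any pair of genotypes. Pairs of genotypes were tested with edgeR (quasi-likelihood F-test) across all genes, and a gene passed at an adjusted p under 0.05. All 10 genes had enough counts to be tested in each comparison. Between Zmat3-/- and wt mice 0 of the 10 passed, while 0.763% of all 13494 genes tested did. Between TKO and wt mice 0 passed against 0.294% of 13260 genes, and between TKO and Zmat3-/- mice 0 passed against 0.221% of 13124 genes. At an unadjusted p under 0.05 the count was again 0 of 10 in each comparison, with 16.1%, 10.3% and 4.50% of all genes in the same order. In no comparison did the ranges of a member fail to overlap, as those of 13.9%, 13.8% and 5.65% of all genes did. DESeq2, tried as another test, also passed 0 of the 10 in each comparison. Levels are given as CPM, counts relative to the library total and scaled with edgeR's TMM factors.

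The library totals ran from 17669715 to 80207003 counts, so that 3 counts, used as the floor of detection, stood at 0.170 CPM in the smallest library and 0.0374 CPM in the largest. Cd4 was at 968 to 1320 CPM, Cd8a at 1506 to 2059 CPM and Cd3e at 312 to 557 CPM in the 11 mice, which marks the samples as thymocytes. Il2ra (CD25), a marker of middle double-negative stages, was at 29.1 to 45.8 CPM. Zmat3 was at 9.8 to 27.4 CPM in wt, 5.3 to 6.9 CPM in Zmat3-/- and 7.5 to 8.1 CPM in TKO mice, without overlap between wt and either mutant group, and it did not pass the test (edgeR adjusted p = 0.0786 and 0.371). Bbc3 was at 17.0 to 19.8 CPM in wt, at least 15.3 CPM in Zmat3-/- and 11.9 to 15.8 CPM in TKO mice, where TKO 2 lay within the Zmat3-/- range. Cdkn1a was at 3.58 to 10.2 CPM in wt, 4.81 to 8.61 CPM in Zmat3-/- and 2.26 to 3.55 CPM in TKO mice. Neither passed the test in TKO against wt mice (edgeR adjusted p = 0.399 and 0.443). Xist stood at 501 to 1498 CPM in wt 1, wt 2, Zmat3-/- 1, Zmat3-/- 2 and TKO 1 and between 0.733 and 2.6 CPM in the remaining 6, and the labels give no sex. Libraries wt 1 and wt 2 stood apart from the other 9 in how level followed transcript length. Genes whose longest transcript has 8 kb or more were at a median log2 of −0.86 in wt 1 and −0.68 in wt 2 relative to the mean of all mice, and at 0.03 to 0.30 in the other 9. Genes under 1 kb were at 0.70 and 0.45 in wt 1 and wt 2 and at −0.28 to 0.02 in the others.

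**Figure D1:**
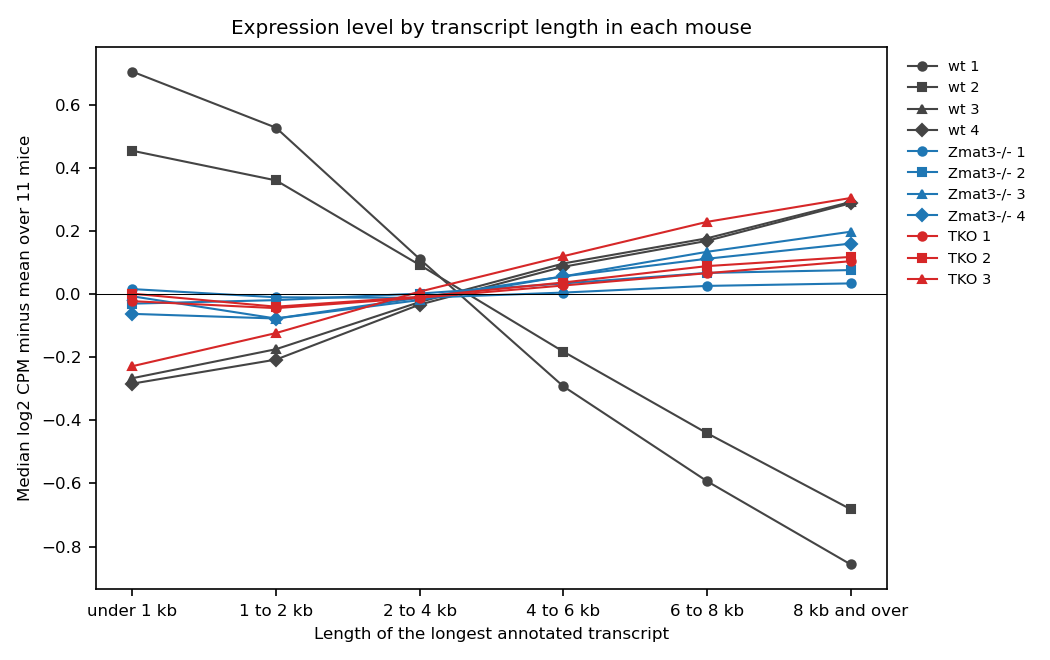
Median difference of log2 CPM from the mean over 11 mice (y axis) for tested genes in 6 classes of longest annotated transcript (x axis), 1 line per mouse, coloured by genotype. The lines of wt 1 and wt 2 fall from 0.70 and 0.45 to −0.86 and −0.68, while those of wt 3 and wt 4 rise with those of the mutants.

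Notch1 (ENSMUSG00000026923.15, chr2:26457903-26516663, minus strand), the receptor that drives T cell commitment and beta-selection, was the most abundant of the 3 receptors. Notch1 had 112, 99.2, 268 and 256 CPM in wt 1 to 4, 221, 249, 247 and 213 CPM in Zmat3-/- 1 to 4 and 214, 224 and 360 CPM in TKO 1 to 3. Levels in wt 1 and wt 2 were below those of all other mice, while wt 3 and wt 4 lay above all 4 Zmat3-/- mice and TKO 3 was the highest. The group means were 184 ± 90.4 CPM for wt (SD, n = 4), 232 ± 18.1 CPM for Zmat3-/- (SD, n = 4) and 266 ± 81.1 CPM for TKO mice (SD, n = 3). Notch1 gave a log2FC of 0.34 for Zmat3-/- against wt mice (standard error, SE, 0.327, 95% interval −0.40 to 1.09, edgeR adjusted p = 0.625) and 0.52 in TKO against wt mice (SE 0.398, 95% interval −0.40 to 1.44, edgeR adjusted p = 0.646).

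Notch2 (ENSMUSG00000027878.11, chr3:98013527-98150361, plus strand), which is better known for marginal zone B cells and is also made by early progenitors, had 18.4, 20.7, 50.5 and 49.4 CPM in wt 1 to 4. Notch2 had 44.3, 45.9, 47.1 and 44.0 CPM in Zmat3-/- 1 to 4 and 46.3, 43.1 and 62.5 CPM in TKO 1 to 3. As for Notch1, wt 1 and wt 2 were lowest, wt 3 and wt 4 exceeded all Zmat3-/- mice, and TKO 3 was highest. Markers of B cells summed to 58.9 to 119 CPM in wt, 60.7 to 79.6 CPM in Zmat3-/- and at most 79.4 CPM in TKO mice, and their part in the level of Notch2 was not tested. The log2FC came to 0.39 in Zmat3-/- (SE 0.332, edgeR adjusted p = 0.588) and 0.53 in TKO (SE 0.388) against wt mice.

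Notch3 (ENSMUSG00000038146.8, chr17:32120820-32166852, minus strand), a receptor that pre-TCR signalling thymocytes carry and that is itself induced by Notch1, had 29.6, 27.8, 63.7 and 69.2 CPM in wt 1 to 4. Notch3 had 63.0, 67.1, 65.4 and 57.4 CPM in Zmat3-/- 1 to 4 and 69.3, 50.7 and 84.0 CPM in TKO 1 to 3. Again the gap lay within the wt group, between wt 1 and wt 2 and the other mice. The log2FC came to 0.41 in Zmat3-/- (SE 0.301, edgeR adjusted p = 0.532) and 0.50 in TKO (SE 0.364) against wt mice. Notch3 lies 3.02 Mb from Cdkn1a on chromosome 17, and Ptcra 17.65 Mb from it, so both are on the chromosome of a gene deleted in TKO mice.

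The 3 receptors have longest transcripts of 9488 (Notch1), 10500 (Notch2) and 8016 bases (Notch3), and in wt 1 and wt 2 they were low together with other genes of such length, and by more than these in wt 2. Notch1 stood at a log2 of −0.92 in wt 1 and −1.09 in wt 2 relative to its mean over 11 mice, against −0.86 and −0.68 for the median gene of 8 kb and over. In wt 3 and wt 4 Notch1 stood at 0.34 and 0.27, against 0.29 and 0.29 for that class. Notch2 differed from its length class by −0.28 in wt 1 and −0.29 in wt 2, and Notch3 by −0.06 and −0.33. In TKO 3, the highest mouse for all 3 receptors, Notch1, Notch2 and Notch3 were above their class by 0.46, 0.32 and 0.28. With an offset for transcript length in the fit, an alternative added after the data were seen, the log2FC of Notch1, Notch2 and Notch3 was 0.12, 0.15 and 0.23 in Zmat3-/- and 0.24, 0.23 and 0.27 in TKO against wt mice. Without wt 1 and wt 2 it was −0.17, −0.14 and −0.07 in Zmat3-/- and 0.01, 0.01 and 0.03 in TKO against the other 2 wt mice. With 1 surrogate variable it was 0.36, 0.42 and 0.43 in Zmat3-/- against wt mice, where all 3 receptors passed beside 37.7% of all genes, and 0.40, 0.42 and 0.39 in TKO against wt mice, where Notch2 passed beside 14.0% of all genes (edgeR adjusted p = 0.0848, 0.0127 and 0.0654). With the replicate block it was 0.83, 0.88 and 0.82 in TKO against wt mice (edgeR adjusted p = 0.305 for each). No TKO mouse carried the number 4, so wt 4 had a block of its own and did not add to this estimate. Without wt 4 and without the block the log2FC was 0.72, 0.75 and 0.74. With one mouse left out it ran from 0.13 to 0.58 for Notch1, 0.18 to 0.62 for Notch2 and 0.22 to 0.65 for Notch3 in Zmat3-/- against wt mice, lowest without wt 1 or wt 2 and highest without wt 3 or wt 4. In TKO against wt mice it ran from 0.26 to 0.75, 0.32 to 0.76 and 0.31 to 0.74, with the value of 0.26 for Notch1 reached without TKO 3. Over the 11 mice the genes whose log2 CPM was most like that of Notch1 among 13522 genes were Hcfc1 (Pearson r 0.990), Nin (r 0.989) and Xpo6 (r 0.986), with longest transcripts of 8262, 9919 and 7335 bases. For Notch3 they were Gcn1l1 (r 0.986), C2cd3 (r 0.986) and Setd1a (r 0.982), of 8555, 7803 and 6487 bases. These correlations share the 11 libraries and their length trend, and are given as a description.

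**Figure D2:**
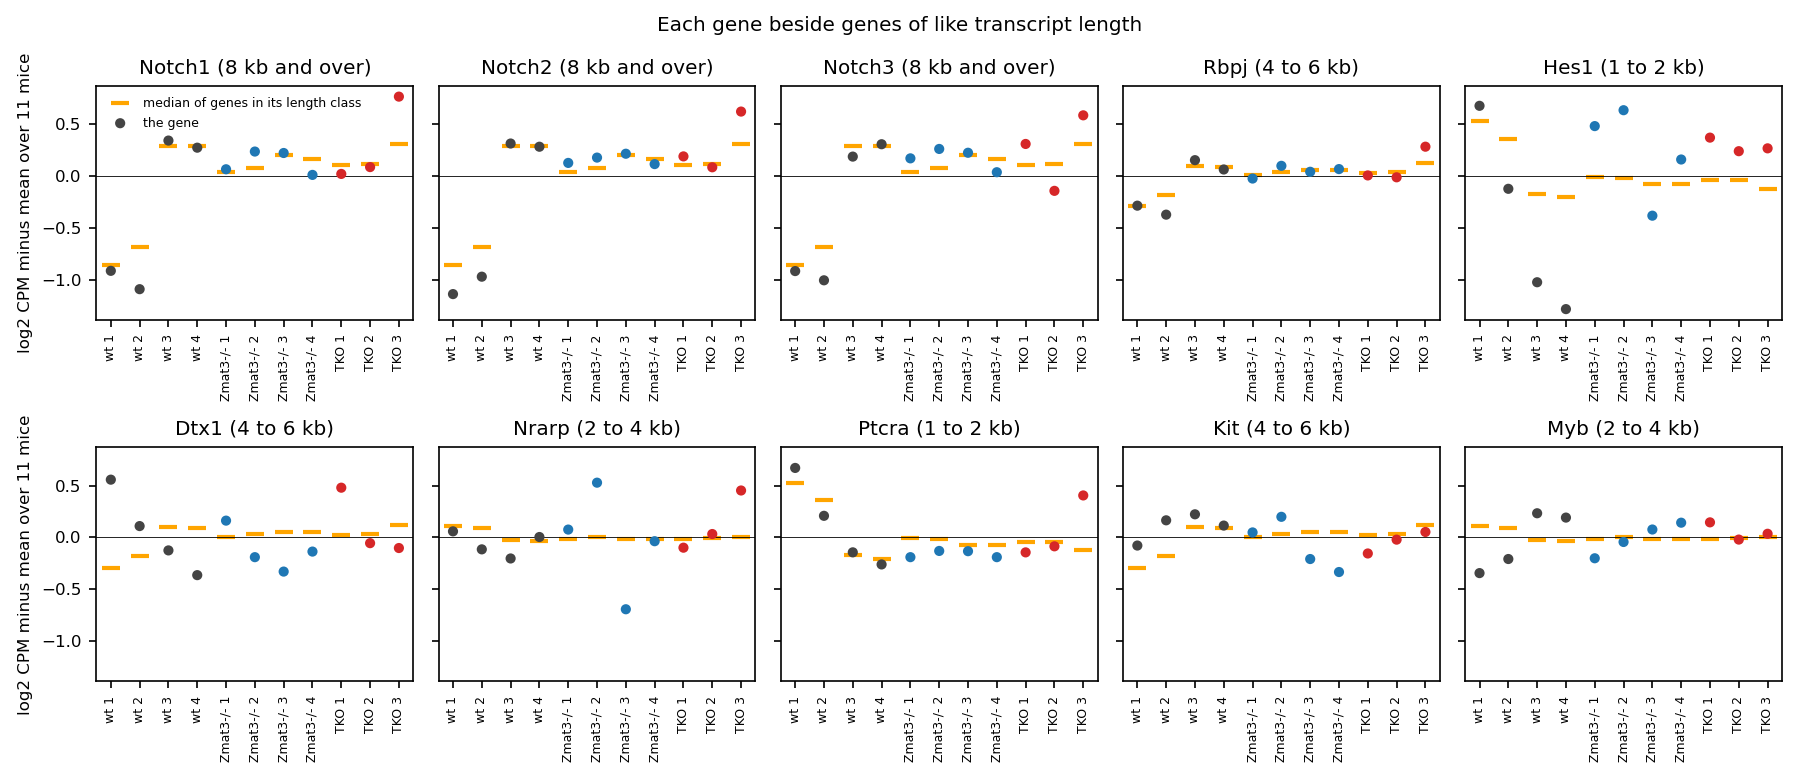
Log2 CPM minus the gene's mean over 11 mice (y axis) in each mouse (x axis) for the 10 genes, as points coloured by genotype (wt dark grey, Zmat3-/- blue, TKO red), with orange bars for the median of all tested genes in the same class of transcript length. Points of Notch1, Notch2 and Notch3 lie at or below the bars in wt 1 and wt 2, down to −1.14 in wt 1, and above them in TKO 3, while Hes1 lies at −1.03 and −1.29 in wt 3 and wt 4, where its class lies at −0.17 and −0.21.

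Rbpj (ENSMUSG00000039191.12, chr5:53466152-53657362, plus strand), the DNA-binding partner of all Notch receptors, had 77.1, 72.6, 105 and 98.3 CPM in wt 1 to 4, 92.5, 101, 96.8 and 98.5 CPM in Zmat3-/- 1 to 4 and 94.4, 93.3 and 114 CPM in TKO 1 to 3. The lowest values were again those of wt 1 and wt 2. The log2FC came to 0.14 in Zmat3-/- against wt mice (95% interval −0.16 to 0.44) and 0.18 in TKO against wt mice (95% interval −0.21 to 0.56). The annotated pseudogenes Rbpj-ps1 and Rbpj-ps3 had 0 counts in all 11 mice, which allows up to 3 counts in each library.

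Hes1 (ENSMUSG00000022528.8, chr16:30064384-30067796, plus strand), a repressor of the basic helix-loop-helix class and a classical direct target of Notch, showed another order of the mice. Hes1 had 8.90, 5.09, 2.70 and 2.24 CPM in wt 1 to 4, 7.77, 8.64, 4.24 and 6.20 CPM in Zmat3-/- 1 to 4 and 7.19, 6.56 and 6.69 CPM in TKO 1 to 3. The 2 lowest values were those of wt 3 and wt 4, and the highest was that of wt 1, so the wt range enclosed both mutant groups. The group means were 4.73 ± 3.05 CPM for wt (SD, n = 4), 6.71 ± 1.93 CPM for Zmat3-/- (SD, n = 4) and 6.81 ± 0.332 CPM for TKO mice (SD, n = 3). The log2FC came to 0.50 in Zmat3-/- against wt mice (SE 0.440, 95% interval −0.50 to 1.5, edgeR adjusted p = 0.599) and 0.50 in TKO against wt mice (SE 0.463, edgeR adjusted p = 0.689).

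Without wt 1 and wt 2, an alternative added after the data were seen, the log2FC of Hes1 was 1.45 in Zmat3-/- against wt mice (edgeR adjusted p = 0.0051) and 1.45 in TKO against wt mice (edgeR adjusted p = 0.0117). It was then the 1 member of 10 that passed in each comparison, where 33.0% and 8.15% of all genes passed. Without wt 1 alone it was 0.99 (edgeR adjusted p = 0.244) and 1.00 (edgeR adjusted p = 0.473). It was smaller without wt 3 (0.31 in both comparisons) and without wt 4 (0.27 in both). With 1 surrogate variable in the fit, Hes1 passed at 0.86 in Zmat3-/- (edgeR adjusted p = 0.00549) and 1.00 in TKO against wt mice (edgeR adjusted p = 0.0163). Notch1, Notch2 and Notch3 also passed in that fit of Zmat3-/- against wt mice (0.36, 0.42 and 0.43), as 4 of 10 members against 37.7% of all genes, and Notch2 passed in TKO against wt mice (0.42), as 2 of 10 members against 14.0% of all genes. With the length offset Hes1 was at 0.82 (edgeR adjusted p = 0.179) and 0.88 (edgeR adjusted p = 0.264). Over the 4 Zmat3-/- and 4 wt mice with the replicate number as a block, its log2FC came to 0.66 (edgeR adjusted p = 0.348).

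Other measures that differed between the mice are given beside Hes1. The mice with a high Xist level had 8.90 and 5.09 CPM of Hes1 in wt, 7.77 and 8.64 CPM in Zmat3-/- and 7.19 CPM in TKO, and those with a low one had 2.70 and 2.24, 4.24 and 6.20, and 6.56 and 6.69 CPM. Only among the latter did wt lie below both mutant groups, and with the Xist level in the fit the log2FC of Hes1 was 0.61 (edgeR adjusted p = 0.281) and 0.82 (edgeR adjusted p = 0.471). The genes most like Hes1 over the 11 mice were Zfp36 (r 0.948), Mpp6 (r 0.947) and Wdr43 (r 0.946). Their longest transcripts have 2790, 3523 and 3450 bases, against 1468 bases for Hes1. Zfp36 is an immediate-early gene that cells switch on within minutes of a stimulus. Summed over a list of 15 immediate-early genes, the level was 1471, 1388, 938 and 922 CPM in wt 1 to 4, 1822 to 2192 CPM in Zmat3-/- and 1914 to 2179 CPM in TKO mice. In wt 1, which had the most Hes1, this sum was below that of every mutant mouse. Of these genes 3 of 15 (Fosb, Dusp1 and Nr4a1) rose and 0 fell in each mutant against wt mice, beside 0.763% and 0.294% of all genes, with a median log2FC of 0.53 and 0.71 over the list. These calls come from the fit without the replicate block. The list was chosen with earlier results of these data known, and the study had reported Fos, Jun and Dusp1 as differentially expressed in TKO mice. The count is therefore no independent support for a change in this class of genes. In each comparison 4 of the 15 (Egr1, Egr2, Egr3 and Btg2) lay below 0 without passing, and at an unadjusted p under 0.05 in edgeR's test there were 6 above and 3 below. Fosb, a subunit of the AP-1 transcription factor, rose by a log2FC of 3.73 and 3.84, the MAP kinase phosphatase gene Dusp1 by 2.28 and 2.37, and the T cell receptor responsive Nr4a1 by 1.13 and 1.15, in Zmat3-/- and TKO mice respectively. Their edgeR adjusted p was 0.00226, 0.0148 and 0.0191 in Zmat3-/- and 0.0146, 0.035 and 0.0354 in TKO mice. Thymic epithelial cells can also express Hes1, and their 10 markers summed to 238, 236, 107 and 157 CPM in wt 1 to 4, 141 to 193 CPM in Zmat3-/- and 90.6 to 183 CPM in TKO mice, with none at 0 in any library. Fibroblast and mural cell markers summed to 14.1 to 31.8 CPM in wt, 34.8 to 49.6 CPM in Zmat3-/- and 12.5 to 50.6 CPM in TKO mice. Both sums were lowest in TKO 3, where Hes1 was at 6.69 CPM. The part of these cells and of the immediate-early genes in the level of Hes1 was not tested.

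Dtx1 (ENSMUSG00000029603.15, chr5:120680202-120711927, minus strand), a Notch target that encodes a ubiquitin ligase acting on the pathway, overlapped in range between genotypes. Dtx1 had 35.6, 26.1, 22.2 and 18.8 CPM in wt 1 to 4, 27.1, 21.2, 19.2 and 22.0 CPM in Zmat3-/- 1 to 4 and 33.7, 23.3 and 22.5 CPM in TKO 1 to 3. The highest mouse of each genotype carried the number 1, and each of these 3 mice had a high Xist level. The log2FC of Dtx1 was −0.20 in Zmat3-/- against wt mice (95% interval −0.66 to 0.27) and 0.03 in TKO against wt mice (95% interval −0.56 to 0.63).

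Nrarp (ENSMUSG00000078202.3, chr2:25180758-25183339, plus strand), a Notch target whose product holds the Notch complex back, was low, at 4.26, 3.77, 3.54 and 4.09 CPM in wt 1 to 4. Nrarp had 4.31, 5.91, 2.5 and 3.98 CPM in Zmat3-/- 1 to 4 and 3.81, 4.18 and 5.61 CPM in TKO 1 to 3. Its wt mice lay close together and inside the range of the Zmat3-/- mice. The log2FC of Nrarp was 0.10 in Zmat3-/- against wt mice (95% interval −0.48 to 0.68) and 0.20 in TKO against wt mice (95% interval −0.32 to 0.71). Hes1 and Dtx1 ranked the 4 wt mice alike, from wt 1 as the highest to wt 4 as the lowest, and both were highest in TKO 1 among the TKO mice, whereas Nrarp did neither. Ptcra and the median of genes of 1 to 2 kb had the same order in the wt mice. Among Zmat3-/- mice Hes1 and Dtx1 differed in order, with Hes1 highest in Zmat3-/- 2 and Dtx1 in Zmat3-/- 1. None of the 3 targets followed the receptors, which were lowest in wt 1 and wt 2.

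Ptcra (ENSMUSG00000036858.8, chr17:46755663-46763712, minus strand) encodes the invariant alpha chain of the pre-TCR and is switched on by Notch together with E proteins. Ptcra had 39.8, 28.9, 22.6 and 20.9 CPM in wt 1 to 4, 21.9, 22.8, 22.8 and 21.9 CPM in Zmat3-/- 1 to 4 and 22.6, 23.6 and 33.1 CPM in TKO 1 to 3. The Zmat3-/- mice were nearly equal, and wt 1, TKO 3 and wt 2 were above the rest. Its mean was 28.1 ± 8.58 CPM for wt (SD, n = 4), 22.4 ± 0.528 CPM for Zmat3-/- (SD, n = 4) and 26.4 ± 5.81 CPM for TKO mice (SD, n = 3). The log2FC came to −0.33 in Zmat3-/- (SE 0.195, edgeR adjusted p = 0.447) and −0.10 in TKO (SE 0.257) against wt mice. Its transcript has 1283 bases, and genes of 1 to 2 kb stood at a median log2 of 0.53 in wt 1 and 0.36 in wt 2, beside 0.67 and 0.21 for Ptcra. With the length offset its log2FC came to −0.09 in Zmat3-/- and 0.21 in TKO against wt mice. The 10 proliferation genes, which dividing double-negative cells express, summed to 3220 CPM in wt 1 and 3587 CPM in TKO 3, the 2 mice with the highest Ptcra, and to 2226 to 2977 CPM in the other 9. In wt 2, next highest for Ptcra, this sum was 2252 CPM, near the lowest, and the part of dividing cells in the level of Ptcra was not tested. The genes most like Ptcra were Sf3a2 (r 0.963), Anapc7 (r 0.956) and H13 (r 0.954), with longest transcripts of 2213, 3599 and 5204 bases, all longer than its own.

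Kit (ENSMUSG00000005672.12, chr5:75574916-75656722, plus strand), the stem cell factor receptor of the earliest double-negative cells, had 8.81, 10.4, 10.9 and 10.1 CPM in wt 1 to 4. Kit had 9.63, 10.7, 8.05 and 7.37 CPM in Zmat3-/- 1 to 4 and 8.35, 9.17 and 9.65 CPM in TKO 1 to 3. The groups overlapped, with the 2 lowest values in Zmat3-/- 4 and Zmat3-/- 3. The log2FC of Kit was −0.17 in Zmat3-/- against wt mice (95% interval −0.51 to 0.18) and −0.16 in TKO against wt mice (95% interval −0.52 to 0.20), and it stayed negative in both under every alternative tried, from −0.31 to −0.08 and from −0.32 to −0.09. Mast cells carry Kit too, and their 5 markers summed to 2.4 to 6.9 CPM in the 11 mice, with Cpa3 at 2.2 to 5.4 CPM and Fcer1a at most 0.2 CPM. Their part in the level of Kit was not tested.

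Myb (ENSMUSG00000019982.15, chr10:21124935-21160984, minus strand), a transcription factor gene needed from the double-negative to the double-positive stage, was the most abundant member. Myb had 773, 849, 1153 and 1120 CPM in wt 1 to 4, 854, 952, 1035 and 1083 CPM in Zmat3-/- 1 to 4 and 1085, 967 and 1005 CPM in TKO 1 to 3. All mutant values lay inside the wt range. The log2FC of Myb was 0.01 in Zmat3-/- against wt mice (95% interval −0.37 to 0.39) and 0.05 in TKO against wt mice (95% interval −0.40 to 0.51).

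**Figure D3:**
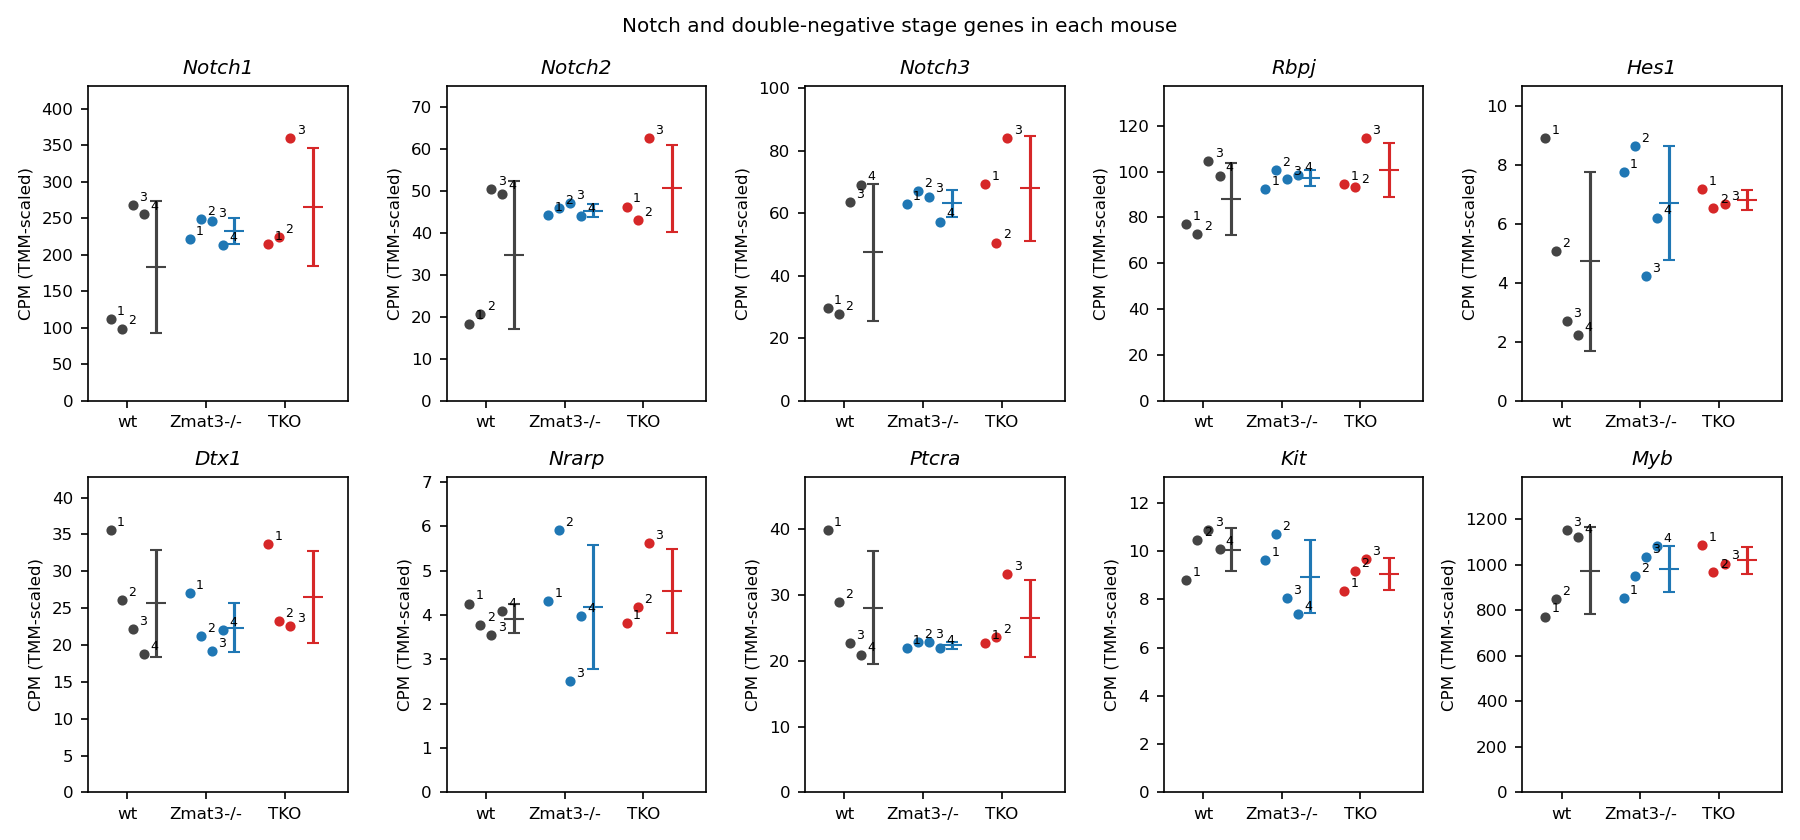
CPM (y axis, from 0) of each of the 10 genes in every mouse, by genotype (x axis), with the mouse number beside each point and the mean ± SD as a bar to the right of each group. In wt mice 1 and 2 the 3 receptors were below all other mice, whereas Hes1 was lowest in wt 3 and wt 4.

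Between TKO and Zmat3-/- mice, which differ by the loss of Puma and p21, none of the 10 genes passed the test. The log2FC ran from −0.003 (Kit) to 0.23 (Dtx1 and Ptcra), and the lowest unadjusted p was 0.0866 for Ptcra in edgeR's quasi-likelihood test (adjusted p at least 0.983 for all 10). The 95% interval was −0.16 to 0.51 for Notch1, −0.09 to 0.38 for Notch2 and −0.21 to 0.39 for Notch3. It was −0.13 to 0.20 for Rbpj and −0.18 to 0.26 for Myb, the tightest 2 of the 10. For Hes1 it was −0.50 to 0.50 and for Nrarp −0.50 to 0.71, so a difference of 1.4-fold in these low genes would lie within it. An absolute log2FC above 0.5 was reached by 0 of the 10 genes here, against 3.12% of all genes. In Zmat3-/- against wt mice it was reached by 1 gene (Hes1), against 15.3% of all genes, and in TKO against wt mice by 4 genes (Notch1, Notch2, Notch3 and Hes1), against 18.0%. Both comparisons with wt mice share the same 4 wt libraries.

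**Figure D4:**
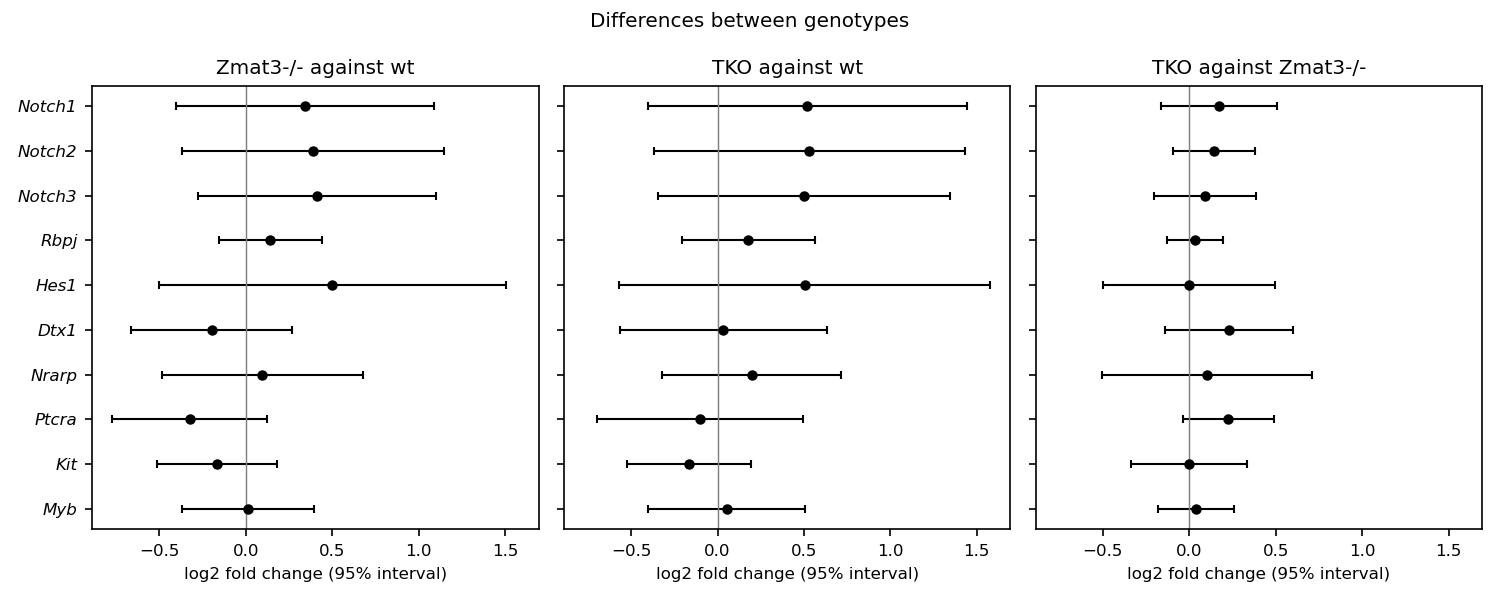
Log2 fold change (x axis) of the 10 genes (y axis) in the 3 comparisons, with points for edgeR's estimate and bars for the 95% interval. Every bar crosses 0, and the bars are shorter in TKO against Zmat3-/- mice except for Nrarp (−0.50 to 0.71), with points between −0.003 and 0.23.

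Levels of different genes were compared per kb of merged exons. Myb was highest, at a mean of 109, 110 and 114 CPM per kb in wt, Zmat3-/- and TKO mice, and its lowest mouse (86.5 CPM per kb) was above every mouse for every other member. Ptcra followed at 21.9, 17.4 and 20.6 CPM per kb and Notch1 at 12.9, 16.3 and 18.7 CPM per kb, and their ranges overlapped in each genotype. Rbpj (6.91, 7.62 and 7.90 CPM per kb) and Notch3 (5.88, 7.81 and 8.41 CPM per kb) overlapped in range in each genotype, as did Dtx1 (4.87, 4.24 and 5.03 CPM per kb) and Notch2 (3.22, 4.21 and 4.70 CPM per kb). Hes1 (2.32, 3.30 and 3.34 CPM per kb), Nrarp (1.52, 1.62 and 1.76 CPM per kb) and Kit (1.13, 1.00 and 1.02 CPM per kb) were lowest. The order depended on the length used. Per kb of the longest transcript Notch1 had 19.4, 24.5 and 28.0 CPM per kb and Ptcra 21.9, 17.4 and 20.6 CPM per kb. Rbpj then stood at 16.1, 17.7 and 18.4 CPM per kb, well above Notch3 at 5.94, 7.88 and 8.48 CPM per kb. Hes1 (4.57 CPM per kb) was then above Notch2 (4.32 CPM per kb) in Zmat3-/- mice.

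Some annotated genes share exon bases with the members, and the library kit does not keep strand. Antisense to Notch1, 0610009E02Rik shares 1068 exon bases and was at 30.8, 16.8, 2.2 and 0.9 CPM in wt 1 to 4 and at 0.3 to 1.4 CPM in the mutants. Gm13568, which shares 414 bases with Notch1, was at 12.9, 4.7, 0.5 and 0.2 CPM in wt 1 to 4. Antisense to Myb, Gm26577 shares 559 bases and was at 0.1, 0.1, 3.2 and 2.6 CPM in wt 1 to 4 and at 2.4 to 3.8 CPM in the mutants. Wild-type mice 1 and 2 thus stood apart in these transcripts too, and reads of a gene and its antisense partner cannot be told apart. Summing each member with the genes that share its exons changed no call, but lowered the log2FC of Notch1 to 0.22 in Zmat3-/- and 0.39 in TKO against wt mice. Gm38287 shares 2051 bases with Nrarp and was at most at 0.1 CPM.

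The rest of the pathway was described with 9 lists of 79 further genes. No gene of these lists passed the test in any comparison. At an unadjusted p under 0.05 in edgeR's test there were 9 of 72 tested genes (12.5%, against 16.1% of all genes) in Zmat3-/- against wt mice, 3 of 70 (4.29%, against 10.3%) in TKO against wt mice and 4 of 69 (5.80%, against 4.50%) in TKO against Zmat3-/- mice.

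Upstream of the receptors, 3 of 5 ligand genes were tested against wt mice. Jag2 had the smallest adjusted p of them in Zmat3-/- and Jag1 in TKO mice (log2FC 0.48, edgeR adjusted p = 0.672). Jag2 was at 9.5 to 12.5 CPM in wt mice (log2FC 0.15 in Zmat3-/-, edgeR adjusted p = 0.568). In TKO mice its log2FC was −0.17 against wt (edgeR adjusted p = 0.721) and −0.33 against Zmat3-/- mice (edgeR adjusted p = 0.983). Notch4, the receptor of endothelium, was at 0.6 to 3.1 CPM in the 11 mice and had a log2FC of −0.75 in Zmat3-/- (edgeR adjusted p = 0.404). Among 10 genes of receptor cleavage, Aph1b, which encodes a subunit of gamma-secretase, had 0.82 in Zmat3-/- (edgeR adjusted p = 0.137), and 5 genes lay above and 5 below 0.

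The fringe and O-glycan genes, whose enzymes add sugars that tune the response of Notch to its ligands, lay mostly below 0. In Zmat3-/- against wt mice 4 of 5 were lower and none passed, with a median log2FC of −0.32 beside −0.03 over all genes, and in TKO against wt mice 5 of 5 were lower and none passed, with a median of −0.26 beside −0.04. Lfng, which raises the response of double-negative cells to Delta-like ligands, had 59.1, 47.4, 31.5 and 32.2 CPM in wt 1 to 4 and 27.3, 26.2, 20.1 and 24.8 CPM in Zmat3-/- 1 to 4. It had 19.2, 34.2 and 27.9 CPM in TKO 1 to 3. All 4 wt mice lay above all 4 Zmat3-/- mice, while TKO 2 lay within the wt range. The log2FC of Lfng was −0.79 in Zmat3-/- (edgeR adjusted p = 0.133) and −0.67 in TKO against wt mice (edgeR adjusted p = 0.481), so the difference was not past the test. Rfng, a related enzyme gene, was at 54.5, 45.3, 38.6 and 35.9 CPM in wt 1 to 4 and 29.2 to 34.6 CPM in Zmat3-/- mice (log2FC −0.49, edgeR adjusted p = 0.148). Mfng, the other fringe gene, was at 58.5, 48.6, 35.3 and 39.5 CPM in wt 1 to 4 and 34.7 to 37.8 CPM in Zmat3-/- mice. Lfng, Rfng and Mfng, with longest transcripts of 2305, 2467 and 1865 bases, were each highest in wt 1 and wt 2, and the part of these libraries in the list's median was not tested.

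Summed over the nuclear cofactors, the level was lowest in wt 1 and wt 2, as for the receptors. All 10, which include the Mastermind coactivators that bind the Notch and RBPJ complex and the corepressor Spen that acts with RBPJ alone, lay above 0 in both comparisons with wt mice and none passed. Their median log2FC was 0.36 in Zmat3-/- and 0.44 in TKO mice. Spen, of 12299 bases, was at 33.7, 37.6, 166 and 175 CPM in wt 1 to 4, 134 to 177 CPM in Zmat3-/- and 140 to 226 CPM in TKO mice, so that wt 1 and wt 2 were again below all others. Snw1, of 5083 bases, was instead highest in wt 1 and wt 2 (134, 135, 104 and 98.4 CPM in wt 1 to 4), with a log2FC of 0.004 and 0.008. The sums were 714 and 798 CPM in wt 1 and wt 2 and 1416 to 1894 CPM in the other 9 mice. Maml3 had the smallest adjusted p of the list, at a log2FC of 0.35 in Zmat3-/- against wt mice (edgeR adjusted p = 0.369). Of 10 turnover genes 6 lay above 0 in either comparison with wt mice, with Dtx4 at 0.61 in Zmat3-/- (edgeR adjusted p = 0.310).

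Of the other Notch targets none passed the test. In Zmat3-/- against wt mice 6 of 8 tested lay above and 2 below 0, with a median log2FC of 0.12 beside −0.03 over all genes, and in TKO against wt mice 4 of 7 lay above and 3 below 0, with a median of 0.19 beside −0.04. The smallest adjusted p in Zmat3-/- was that of Hey1, a repressor related to Hes1, at a log2FC of 0.74 (edgeR adjusted p = 0.143). Hey1 was at 2.3 to 3.9 CPM in wt mice and 4.2 to 5.6 CPM in Zmat3-/- mice, without overlap, and at 4.75, 6.21 and 2.6 CPM in TKO 1 to 3. Fibroblast and mural cell markers also did not overlap between these groups, summing to 14.1 to 31.8 CPM in wt and 34.8 to 49.6 CPM in Zmat3-/- mice. They summed to 38.9, 50.6 and 12.5 CPM in TKO 1 to 3, and the part of these cells in the level of Hey1 was not tested. Among 12 tested genes of early progenitors 9 lay above and 3 below 0 in Zmat3-/- against wt mice, with Mycn, a growth gene of early thymocytes, at 0.46 (edgeR adjusted p = 0.332). In TKO against wt mice 7 lay above and 5 below 0. Markers of myeloid cells summed to 206 to 335 CPM in wt, 284 to 372 CPM in Zmat3-/- and 182 to 436 CPM in TKO mice. The part of myeloid cells in this list was not tested. Among 13 genes of the pre-TCR stage 4 lay above and 9 below 0 in Zmat3-/- against wt mice, with a median of −0.11. Cd3e, a signalling chain of the pre-TCR and TCR, had the smallest adjusted p, with 557, 476, 477 and 446 CPM in wt 1 to 4, 325 to 363 CPM in Zmat3-/- and 312 to 412 CPM in TKO mice. Its ranges did not overlap between wt and either mutant group, and its log2FC came to −0.47 in both (edgeR adjusted p = 0.0966 and 0.413). Rag1, the recombinase gene, was at 1592, 2209, 5354 and 5056 CPM in wt 1 to 4 and 3839 to 5607 CPM in the mutants, which sets wt 1 and wt 2 apart once more.

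**Figure D5:**
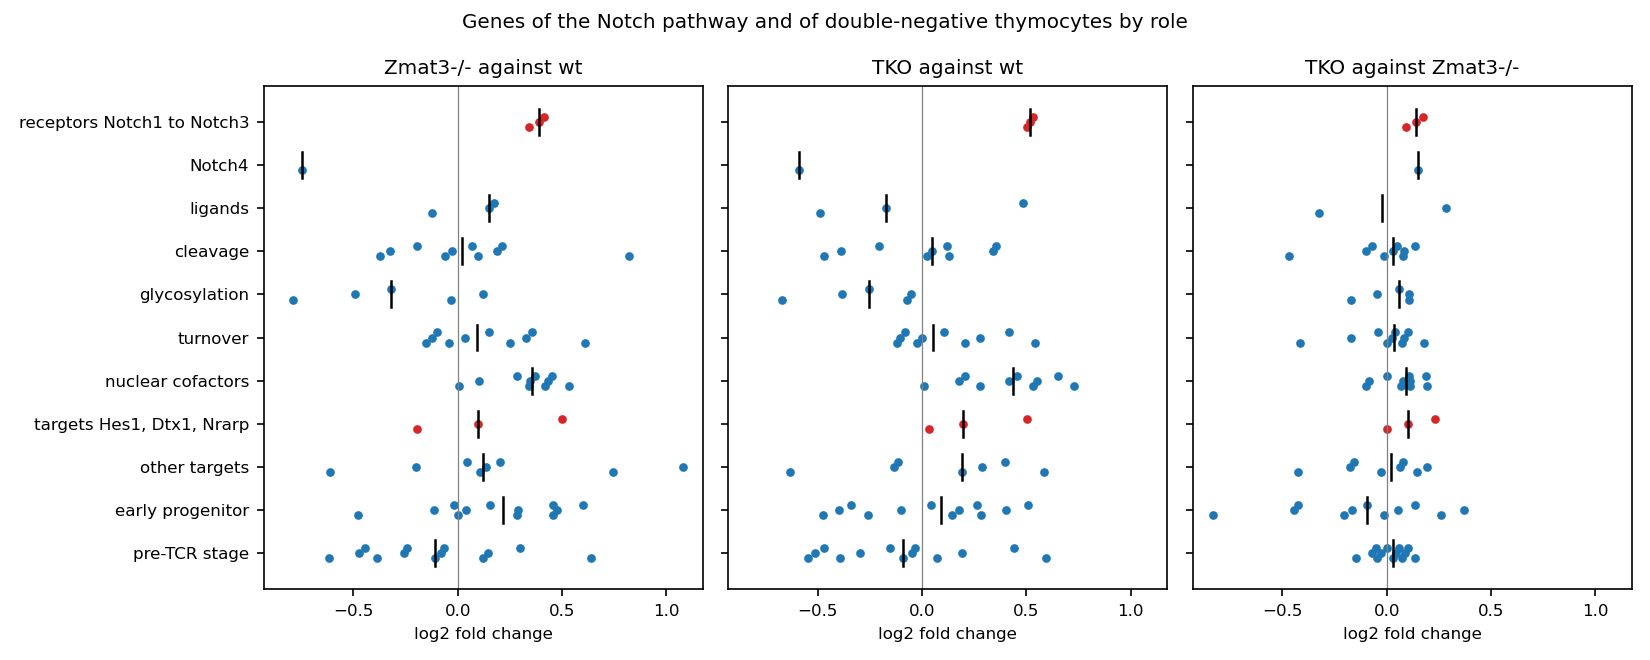
Log2 fold change (x axis) of each tested gene in 11 groups by role (y axis) for the 3 comparisons, with members in red, other genes in blue and a black bar at each group's median. Receptors and nuclear cofactors lie above 0 in both comparisons with wt mice, with medians of 0.39 and 0.36 in Zmat3-/- against wt mice, and in TKO against Zmat3-/- mice the medians of the groups lie between −0.10 (early progenitor) and 0.15 (Notch4).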

How the data were processed

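RNA-seq of thymocytes from 11 mice (4 wt, 4 Zmat3-/-, 3 TKO) was used. The authors quantified paired reads of unstranded libraries with Salmon against GRCm38 and deposited estimated counts per gene, without normalization for library size or transcript length. All 598598 values were whole numbers. GENCODE M21 supplied names and positions for 54166 of the 54418 Ensembl identifiers. Genotype and mouse number were read from the labels.

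Each pair of genotypes was fitted on its own in edgeR 4.0.16 (R 4.3.3): TMM factors, quasi-likelihood F-test, two-sided, Benjamini-Hochberg adjustment over all genes tested. To be tested, a gene needed 20 counts at the depth of the smallest library, and this in a number of mice equal to the size of the smaller group. Following the study, 1628 genes (Xist, Y-linked, rRNA and non-coding immunoglobulin) were not tested. SE was obtained as |log2FC|/√F, and log2 CPM used a prior count of 2. Sex and surrogate variables, which the study's methods include, were tried as alternatives (sva 3.50.0, with the Xist level in place of sex), since the labels give no sex. DESeq2 1.42.0 was another. The code was tested on simulated data.

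The 10 genes and all lists were chosen with earlier results of these data known. Named genes were the members, list genes past the test or with a list's smallest adjusted p, lineage markers, the 3 genes most correlated with each of Hes1, Notch1, Notch3 and Ptcra, overlapping genes, and the targeted genes. Rfng, Mfng, Spen, Snw1, Egr1, Egr2, Egr3, Btg2 and single markers beside a member were added after their values were seen. Floors of 3 counts cover counting error only.

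Same-numbered Zmat3-/- and wt mice deviated together from their group means (correlations across genes of 0.337, 0.127, 0.257 and 0.301), and a replicate block was fitted on these numbers. Mice 1 and 2 of both groups had a high Xist level and mice 3 and 4 a low one, so same-numbered mice also shared that level. Numbers 1 and 2 each correlated best with the other number. What the correlations reflect was not tested. The pairing comes from the numbers in the labels alone. With the block 12 genes in place of 103 passed, and 0 of the 10 members in either fit.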

Additional observations from a re-analysis of the deposited data

How the results depend on the processing

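The count of the 10 genes past the test stayed at 0 in every comparison under DESeq2, RLE size factors, other filters, no gene class left out, one fit of 3 genotypes, the replicate block, the Xist level, the length offset and the sums with overlapping genes or pseudogenes, and with each mouse left out. It changed against wt mice under 3 alternatives. With 1 surrogate variable, alone or with the Xist level, it was 4 in Zmat3-/- and 2 in TKO mice, and without wt 1 and wt 2 it was 1 (Hes1) in both. The median log2FC of the 10 genes in Zmat3-/- against wt mice was then −0.068. The cause was not tested. The length offset, the sums over shared exons and the fit without wt 1 and wt 2 were chosen after seeing the data.

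Over all genes, 1085 passed in Zmat3-/- against wt mice with DESeq2, 55 with no filter on low counts, 234 in one fit, 12 with the replicate block, 177 with the Xist level, 5086 with 1 surrogate variable, 5167 with both, 456 with the length offset and 4649 without wt 1 and wt 2, and 17 to 105 with one mouse left out. In TKO against wt mice 381, 61, 219 and 16 passed with DESeq2, no filter, one fit and the replicate block, 1855 and 1909 with 1 surrogate variable without and with the Xist level, 81 with the length offset, 1098 without wt 1 and wt 2 and 16 to 42 with one mouse left out. In TKO against Zmat3-/- mice 73, 90 and 16 passed with DESeq2, no filter and one fit.

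Signs of log2FC turned as follows. Without wt 1 and wt 2, in Zmat3-/- against wt mice, Notch1 was −0.17, Notch2 −0.14, Notch3 −0.072, Rbpj −0.063, Dtx1 0.13, Ptcra 0.041 and Myb −0.21, and in TKO against wt mice Rbpj was −0.02, Ptcra 0.27 and Myb −0.17. With the length offset Rbpj was −0.0014 in Zmat3-/-, and Dtx1 −0.02 and Ptcra 0.21 in TKO against wt mice. With 1 surrogate variable, without and with the Xist level, Myb was −0.021 and −0.0084 in Zmat3-/- and −0.0094 and −0.013 in TKO against wt mice, Ptcra 0.0677 and 0.0679 in TKO against wt mice, Notch3 −0.025 and −0.044 and Rbpj −0.0236 and −0.0243 in TKO against Zmat3-/- mice. With the replicate block Dtx1 was −0.086 in TKO against wt mice. In TKO against Zmat3-/- mice Hes1, at −0.0003, turned to 0.0046 with DESeq2, 0.0045 with RLE, 0.0052 with filterByExpr, 0.016 with no filter, 0.0094 in one fit, 0.033 with the replicate block, 0.0995 with the Xist level, 0.055 with 1 surrogate variable, 0.061 with both and 0.048 with the length offset. Kit, at −0.0026, turned to 0.0016, 0.0028, 0.0030, 0.014, 0.0079 and 0.039 with DESeq2, RLE, filterByExpr, no filter, one fit and the Xist level. With one mouse left out the sign turned within −0.32 to 0.0021 for Dtx1, −0.12 to 0.28 for Nrarp and −0.084 to 0.10 for Myb in Zmat3-/- against wt mice, and within −0.16 to 0.24 for Dtx1, −0.29 to 0.12 for Ptcra and −0.042 to 0.14 for Myb in TKO against wt mice. In TKO against Zmat3-/- mice it turned within −0.078 to 0.30 for Notch1, −0.013 to 0.25 for Notch2, −0.060 to 0.27 for Notch3, −0.043 to 0.094 for Rbpj, −0.16 to 0.14 for Hes1, −0.0023 to 0.37 for Dtx1, −0.070 to 0.32 for Nrarp, −0.074 to 0.095 for Kit and −0.023 to 0.097 for Myb, and the median of the 10 genes ran from −0.022 to 0.21.

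The correlations of same-numbered mice were 0.0729, 0.301 and 0.406 for TKO with wt and 0.195, 0.0113 and 0.173 for TKO with Zmat3-/- mice. Numbers 2 and 3 correlated best with themselves in TKO against wt mice, and 1 and 3 in TKO against Zmat3-/- mice. In Zmat3-/- against wt mice this held for numbers 3 and 4. The numbers in the labels were not shown to pair the mice in any of these comparisons. Over all genes 39 passed in TKO against wt and 29 in TKO against Zmat3-/- mice without the replicate block, 16 and 21 with it, and 0 members in either. With the block Notch1, Notch2 and Notch3 were at 0.83, 0.88 and 0.82 in TKO against wt mice (unadjusted p 0.00782, 0.0100 and 0.00784 in edgeR's test, adjusted p = 0.305 for each). As no TKO mouse carried the number 4, wt 4 and Zmat3-/- 4 did not add to the differences from TKO mice in the fits with the block. Not every mouse correlated best with its own number. The 95% interval of Hes1 in Zmat3-/- against wt mice ran from −0.50 to 1.5, and those of Nrarp and Kit, also low genes, were narrower.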
